A study of Caenorhabditis elegans with 2 samples.

Results

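The AMPK and TOR pathway genes described here are 10 genes of Caenorhabditis elegans taken by name from the 21163 gene rows of the deposited table: aak-1, aak-2, aakb-1, aakb-2, let-363, daf-15, rict-1, rheb-1, raga-1 and rsks-1. They were taken as named genes of the 2 pathways, and all 10 matched 1 row each. RNA was sequenced from whole worms of the wild-type strain N2 at 5 days. The control group received vehicle, and the other group received 100 µM ellagic acid (EA), a plant polyphenol dissolved in dimethyl sulfoxide and mixed into the bacterial food, Escherichia coli OP50. Each group held 1 library, and neither group carried a mutation or transgene by its labels. The labels and files used here state neither the number of worms behind a library nor whether day 5 counts from hatching or adulthood.

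AMPK, the AMP-activated protein kinase, is an energy sensor built from a catalytic alpha, a scaffolding beta and a nucleotide-binding gamma subunit, and it is switched on when cellular ATP falls. TOR, the target of rapamycin, is a kinase that promotes growth and protein synthesis when nutrients are plentiful, in a complex with Raptor (TORC1) or with Rictor (TORC2). In C. elegans, more AMPK activity or less TOR signalling is known to lengthen life. AMPK is controlled largely by nucleotide binding and phosphorylation, and TORC1 in part by small GTPases. A transcript count does not measure this control.

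The control library held 41840364 counts and the EA library 39421614 counts. Of these, the 10 genes took 0.0887% and 0.0917%, and single genes had between 832 and 6834 counts. With 1 library per group there is no spread between replicates, so no difference below has a replicate check or a p-value. The 95% intervals are exact conditional binomial intervals and cover counting error only. CPM is a count scaled to a common library size, and a log2 ratio is EA over control. In whole-worm RNA, fewer cells of a type and less RNA per cell cannot be told apart. Of 4 marker genes each, summed levels in control and EA were 319 and 328 CPM for intestine, 1130 and 1136 CPM for body muscle, 498 and 477 CPM for neurons, 388 and 318 CPM for pharynx, 842 and 998 CPM for germline, 548 and 760 CPM for oocytes, and 22.9 and 35.3 CPM for sperm. For hypodermis they were 69.7 and 86.4 CPM, almost all from lin-26, since the cuticle genes dpy-7, rol-6 and bli-1 were each under 1 CPM in both libraries. No marker was at 0 in either library. Some sums joined genes that parted: for sperm, the phosphatase genes gsp-3 and gsp-4 both had a log2 ratio of 1.20, beside 0.09 for spe-11 and -0.33 for spe-9, and for intestine elt-2 had 0.42 and ges-1 -0.27. All 4 germline markers and all 4 oocyte markers had intervals above 1, while 3 of 4 neuron and 3 of 4 pharynx markers had intervals below 1. Of all genes with a mean of at least 5 CPM, 35.2% had intervals above 1 and 33.1% below. The part of these tissue shares in the ratios below was not tested.

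None of the 10 genes differed by 2-fold between the libraries. Of the 10610 genes whose mean reached 5 CPM, 2.00% were past 2-fold with an interval excluding 1 (0.481% higher and 1.52% lower), and against that share 0 of 10 is not a result about these genes. These were 51 genes higher and 161 lower, or 69 and 133 by FPKM and 58 and 101 with a transcript-length trend removed. At a smaller limit of 0.32 on the log2 scale, 1 of the 10 passed, the AMPK beta subunit gene aakb-1, which was lower with EA, and 25.5% of all genes passed (9.84% higher and 15.6% lower). The interval alone excluded 1 for 6 of the 10, of which 4 were higher and 2 lower, against 68.3% of all genes (35.2% higher and 33.1% lower). By FPKM 6 were higher and 2 lower, where 4877 of the 10610 genes were higher and 2711 lower. With the length trend removed 3 were higher and 4 lower, where 3543 of 10403 genes were higher and 3350 lower. The median log2 ratio of the 10 was 0.010, beside 0.0085 for all genes. The median absolute log2 ratio was 0.08 for the 10 genes, 0.17 for all genes, and 0.15 for the 5661 genes whose mean lay within the range of the 10 (24.1 to 167 CPM).

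**Figure D1:**
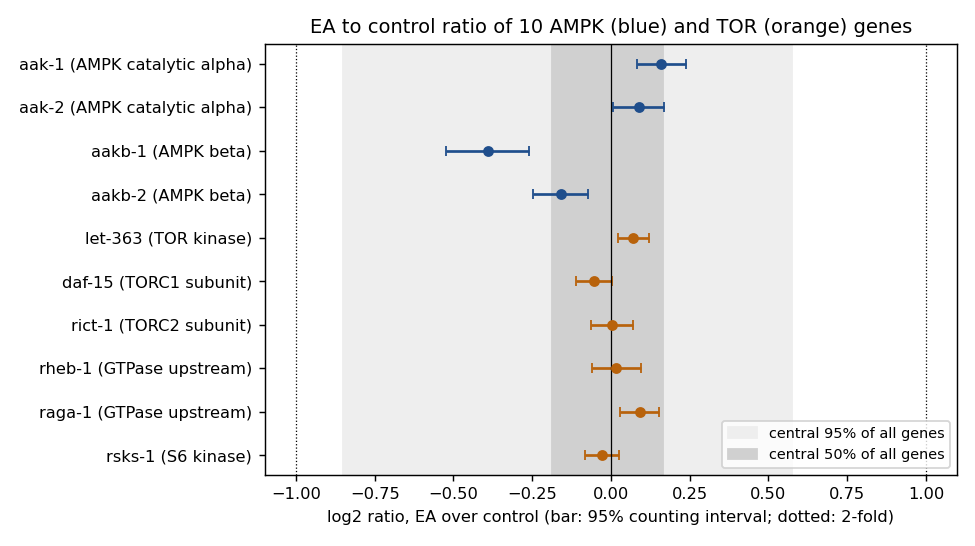
Log2 ratio of EA over control for the 10 genes on the horizontal axis, with 95% counting intervals as bars; blue marks AMPK subunits and orange TOR pathway genes. The pale and dark bands hold the central 95% (-0.85 to 0.57) and central 50% (-0.19 to 0.17) of all genes at 5 CPM or more, and aakb-1 at -0.39 is the one gene of the 10 outside the dark band.

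The catalytic alpha subunits were slightly higher in the EA library. aak-1 (PAR2.3, chromosome III, 8756983 to 8761090, minus strand, RefSeq annotation of WBcel235) encodes alpha 1 and had 2602 counts (63.0 CPM) in control and 2807 counts (70.3 CPM) with EA. Its log2 ratio was 0.16 (95% counting interval 0.08 to 0.24), an 11.7% higher level, and 53.6% of all genes differed by more. aak-2 (T01C8.1, chromosome X, 16796087 to 16803404, plus strand) encodes alpha 2, the catalytic subunit best known in worms for its part in lifespan and stress resistance. It had 2450 counts (59.3 CPM) in control and 2514 counts (63.0 CPM) with EA, a log2 ratio of 0.09 (0.01 to 0.17). The interval of aak-2 held 1 under upper-quartile scaling, centring on the median gene or removal of a transcript-length trend, while that of aak-1 excluded 1 under each alternative run.

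The beta subunits, which hold the complex together and can bind glycogen, were lower in the EA library. aakb-1 (F55F3.1, chromosome X, 13755771 to 13758962, plus strand) had 1131 counts in control and 832 counts with EA, or 27.4 and 20.8 CPM. That was the largest difference among the 10, 1.31-fold lower (1.20 to 1.44), a log2 ratio of -0.39 (-0.52 to -0.26), and 18.5% of all genes differed by more. aakb-1 was also the least counted of the 10 genes and has the shortest transcript among them, with 1114 nucleotides in its longest annotated form. aakb-2 (Y47D3A.15, chromosome III, 11237143 to 11239204, plus strand) had 2333 counts (56.4 CPM) in control and 2016 counts (50.5 CPM) with EA. Its log2 ratio was -0.16 (-0.25 to -0.07), and the interval of either beta gene excluded 1 under every scaling run. The summed level of the pharynx markers was also lower (log2 ratio -0.29, -0.32 to -0.26), and its part in the beta ratios was not tested.

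The balance of alpha to beta transcripts therefore differed between the libraries. A ratio of 2 genes inside a library does not depend on how the libraries are scaled, although a trend on transcript length does not cancel from it. The summed alpha genes had 1.46 times the counts of the summed beta genes in control and 1.87 times with EA, so that the ratio was 1.28-fold higher with EA (1.20 to 1.36); this pair of sums was formed after the values were seen. Within the alpha pair, aak-1 to aak-2 stood at 1.06 and 1.12 by counts, a 1.05-fold difference whose interval held 1 (0.97 to 1.14). Within the beta pair, aakb-1 to aakb-2 stood at 0.485 and 0.413, a ratio of 0.851 (0.763 to 0.949). Per length, as FPKM, aakb-1 made up 45.9% of the beta level in control and 41.9% with EA, while aak-1 made up 55.1% and 56.3% of the alpha level.

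**Figure D2:**
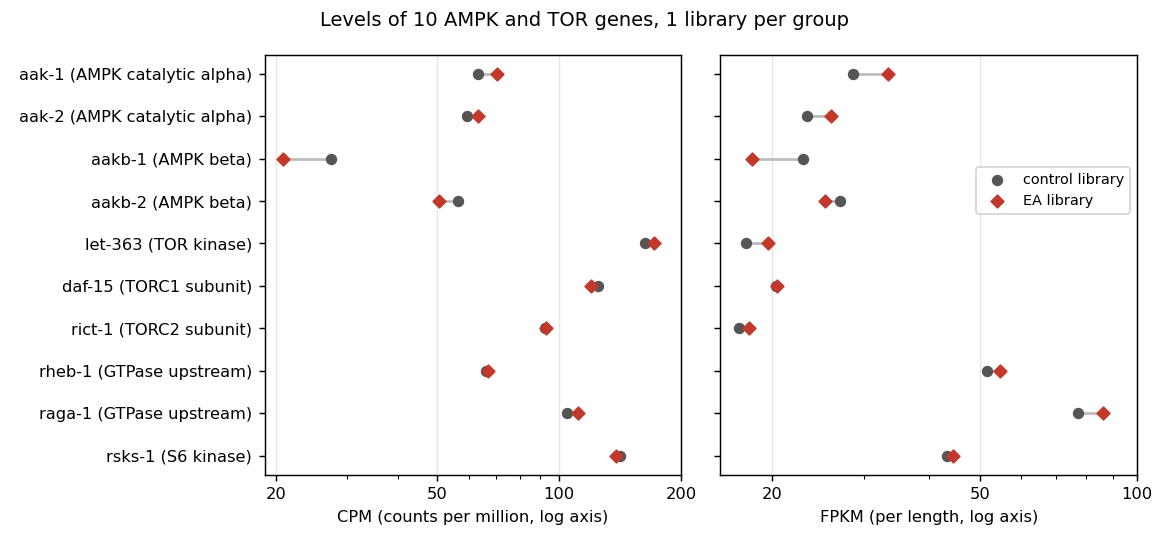
Level of each of the 10 genes in the control library (grey circles) and the EA library (red diamonds), as CPM on the left and as FPKM, which is scaled by transcript length, on the right; both horizontal axes are logarithmic and each point is 1 library. The 2 libraries lie close together for all 10 genes, with the widest gap at aakb-1 (27.4 and 20.8 CPM).

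The TOR kinase and the proteins that define its complexes were nearly level between the libraries. let-363 (B0261.2, chromosome I, 5245743 to 5263426, plus strand) encodes the TOR kinase itself and had 6739 counts in control and 6834 with EA, or 163 and 171 CPM. Its log2 ratio was 0.07 (0.02 to 0.12), a 5.04% higher level, and 77.7% of all genes differed by more. daf-15 (C10C5.6, chromosome IV, 9386208 to 9394979, plus strand), the Raptor subunit of TORC1, had 5149 counts (125 CPM) and 4787 counts (120 CPM), a log2 ratio of -0.05 (-0.11 to 0.003). The interval just held 1. rict-1 (F29C12.3, chromosome II, 13098239 to 13116810, minus strand), the Rictor subunit of TORC2, had 3823 counts and 3698 counts, or 92.5 and 92.7 CPM. Its log2 ratio of 0.0028 (-0.06 to 0.07) was the closest to 0 of the 10, and 99.0% of all genes differed by more. The ratio of daf-15 to rict-1 counts, TORC1 against TORC2, was 1.35 in control and 1.29 with EA, and the interval of the difference held 1 (0.961, 0.905 to 1.02).

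Of the GTPases that switch TORC1 on, raga-1 was slightly higher with EA and rheb-1 was level. rheb-1 (F54C8.5, chromosome III, 9454163 to 9456030, minus strand) encodes the Ras-like protein that activates TORC1 at the lysosome. It had 2729 counts (66.0 CPM) in control and 2666 counts (66.8 CPM) with EA, a log2 ratio of 0.017 (-0.06 to 0.09). raga-1 (T24F1.1, chromosome II, 11301359 to 11302776, plus strand) encodes the Rag GTPase that brings TORC1 to the lysosome when amino acids are present. It had 4327 counts (105 CPM) and 4449 counts (111 CPM), a log2 ratio of 0.09 (0.03 to 0.15). The ratio of rheb-1 to raga-1 was 0.631 by counts in control and 0.599 with EA, a difference whose interval held 1 (0.95, 0.89 to 1.02).

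rsks-1 (Y47D3A.16, chromosome III, 11245120 to 11252281, plus strand) encodes the ribosomal protein S6 kinase, a main substrate of TORC1 whose loss is known to extend worm lifespan. It had 5842 counts (141 CPM) in control and 5533 counts (139 CPM) with EA, a log2 ratio of -0.028 (-0.08 to 0.03). The ratio of let-363 to rsks-1, kinase to substrate kinase, was 1.15 by counts in control and 1.24 with EA, 1.07-fold higher (1.02 to 1.13). The size of this difference depends on transcript length (8560 and 3050 nucleotides). With the length trend removed, the log2 ratios were 0.10 for let-363 and -0.09 for rsks-1, farther apart than the reported 0.07 and -0.028. The 4 AMPK genes summed to 0.298 of the counts of the 6 TOR genes in control and 0.292 with EA, and the interval of this difference held 1 (0.981, 0.948 to 1.02). The signs of daf-15, rict-1, rheb-1 and rsks-1, all with intervals that held 1, turned under at least 1 alternative. Some alternatives also moved their intervals off 1: daf-15 was lower with upper-quartile scaling (-0.07, -0.12 to -0.01), and rsks-1 was lower with the length trend removed (-0.09, -0.15 to -0.04). By FPKM rict-1 (0.07, 0.0032 to 0.13) and rheb-1 (0.08, 0.0069 to 0.16) were higher. The median of all genes by FPKM was itself 0.075, inside the intervals of rict-1 and rheb-1. The interval of daf-15 also lay below 1 with centring on the median gene and with the length trend removed.

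**Figure D3:**
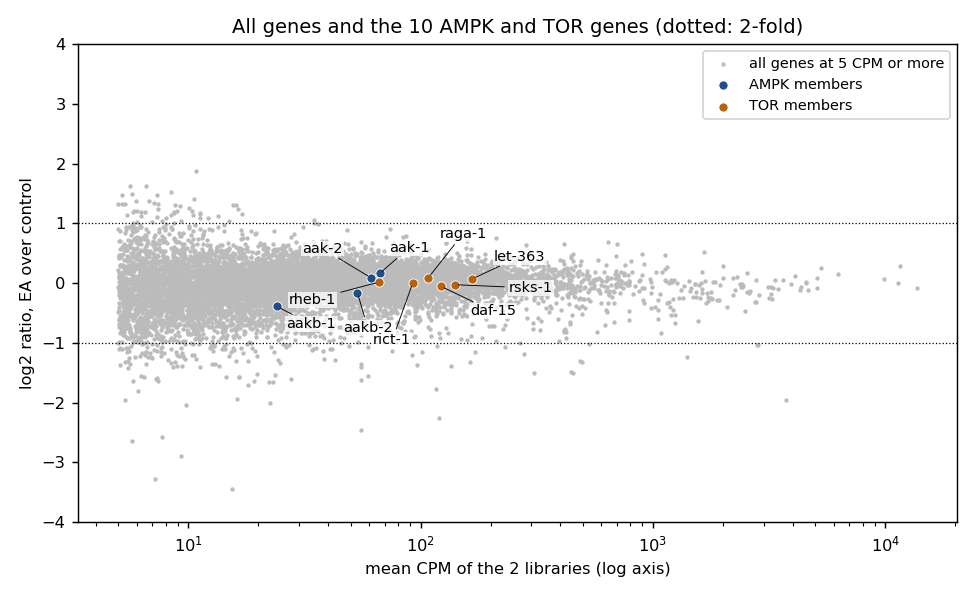
Mean CPM of the 2 libraries on a logarithmic horizontal axis against the log2 ratio of EA over control, for the 10610 genes at 5 CPM or more (grey), with AMPK genes in blue and TOR genes in orange. The 10 labelled genes lie between 24.1 and 167 CPM and inside the dotted 2-fold lines.

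Levels can be compared between genes only per length. As deposited FPKM in the control library, raga-1 was highest at 77.0 FPKM, then rheb-1 at 51.6, rsks-1 at 43.2, aak-1 at 28.6, aakb-2 at 27.0, aak-2 at 23.3, aakb-1 at 22.9, daf-15 at 20.3, let-363 at 17.8 and rict-1 at 17.2 FPKM. The range spanned 4.47-fold. Of neighbours in this order, aak-2 and aakb-1, and let-363 and rict-1, did not differ beyond counting error. In the EA library raga-1 (86.0 FPKM), rheb-1 (54.7), rsks-1 (44.4) and aak-1 (33.4) kept the first 4 places, and rict-1 at 18.1 FPKM was again lowest. The middle of the order shifted: aak-2 (25.9 FPKM) stood just above aakb-2 (25.29) and not below it, and aakb-1 went from place 7 to place 9 at 18.3 FPKM, below daf-15 (20.4) and let-363 (19.6). There the steps from aak-2 to aakb-2, from let-363 to aakb-1 and from aakb-1 to rict-1 were within counting error. Thus the GTPases and the S6 kinase had the highest levels per length in both libraries, and the large scaffolds and the TOR kinase were among the lowest, although let-363 had the most counts of the 10.

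In the authors' deposited table all 10 genes carry the call "normal" at the authors' limits. In that table the false discovery rate from edgeR ranged from 0.267 for aakb-1 to 1.0 for rict-1; no source used here says how a spread was set with 1 library per group. The log2 fold changes in the authors' deposited table differed from those given here by at most 0.0045.

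The 10 genes sit on chromosomes I, II, III, IV and X, and some share sequence with other genes. In the Ensembl annotation of WBcel235, exons of aak-1 share 100 bases with sma-2 on the other strand, those of aak-2 share 78 bases with mec-4, those of daf-15 share 107 bases with col-121, and those of rict-1 share 37 bases with col-86 on the same strand. The labels and files used here do not say if strand entered the counting, so reads from these stretches cannot be told apart. The overlapping genes were less counted than the genes described here: sma-2 had 983 and 840 counts, mec-4 had 214 and 214, col-121 had 77 and 45, and col-86 had 18 and 30. An annotated noncoding RNA, Y47D3A.35, shares 109 exon bases with aakb-2 and was not analysed here. Other genes lie within the span of a member without sharing exons: B0261.5 (6 and 10 counts) and B0261.6 (101 and 134 counts) within let-363, and pqn-32 (197 and 156 counts) within rict-1. The noncoding RNA T01C8.9 within aak-2 and a pair of microRNA genes of the mir-5592 family within aakb-1 were not analysed here. The microRNA genes lie beyond the RefSeq end of aakb-1 given above, inside its longer Ensembl span, which ends at 13759391. No overlap in exons was annotated for aakb-1, let-363, rheb-1, raga-1 or rsks-1.

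Several of the 10 lie close to neighbours on the same strand; in C. elegans such genes are often transcribed together as an operon, and operons were not checked here. These neighbours were added by position, with distances between Ensembl spans, after the data were seen. raga-1 lies 98 bases after saps-1 and 114 bases before samp-1, and their log2 ratios were 0.21 (0.15 to 0.26) and 0.29 (0.23 to 0.35), beside 0.09 (0.03 to 0.15) for raga-1. rheb-1 lies 100 bases from F54C8.7, whose log2 ratio was -0.28 (-0.35 to -0.21) against 0.017 for rheb-1. The TOR kinase gene let-363 lies 340 bases after mrpl-47, a mitochondrial ribosomal protein gene, at 0.10 (0.01 to 0.20), and 269 bases before vep-1 at 0.13 (0.08 to 0.19), both near its own 0.07. Farther along the same strand, cest-13 lies 845 bases from aakb-1, with a log2 ratio of 0.24 (0.11 to 0.38) against -0.39 for aakb-1. The weakly counted C10C5.7 lies 492 bases from daf-15 and had 100 and 60 counts, a log2 ratio of -0.68 (-1.17 to -0.21). Y47D3A.32 lies 109 bases from rsks-1 and had 54 and 42 counts, with an interval that held 1. The neighbours thus lay on either side of 0. The genes aakb-2 and rsks-1 are neighbours on chromosome III, 5915 bases apart, and had log2 ratios of -0.16 and -0.028.

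The rest of the pathway was followed through 5 lists of 54 gene names, of which 53 matched a row, every one of them above a mean of 5 CPM. None of the 53 passed 2-fold (background 2.00%). At the limit of 0.32 on the log2 scale, 4 were higher and 1 lower, where 9.84% of all genes were higher and 15.6% lower. That split did not hold in every setting: it was 6 higher and 0 lower by FPKM (all genes 14.8% and 12.5%), and 3 higher and 5 lower with the length trend removed (all genes 9.07% and 13.9%). The median log2 ratio over the 53 was 0.016, beside 0.0085 for all genes, and was -0.016 with the length trend removed. For all genes the median was 0.075 by FPKM and 0.0048 with the length trend removed, the values to set beside the list medians below.

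The list of AMPK gamma subunits and upstream activators had 10 genes. Of these, 2 passed the smaller limit, both higher, where 9.84% of all genes were higher and 15.6% lower. The median log2 ratio of the list was 0.05 (-0.0014 by FPKM and -0.014 with the length trend removed). aakg-3, a gamma subunit gene, had 172 and 275 counts (4.16 and 6.89 CPM), a log2 ratio of 0.73 (0.45 to 1.01), the largest of the 53. Its mean of 5.53 CPM passed the minimum of 5 CPM only through the EA library, where it was higher. That minimum, used for naming and for the shares of all genes, thus favoured its higher ratio. mop-25.3, one of 3 genes for MO25, a partner of the AMPK-activating kinase LKB1, had 0.36 (0.24 to 0.48). aakg-1, the gamma gene with the highest FPKM, went the other way, with 5942 and 4796 counts and -0.26 (-0.31 to -0.20); with the length trend removed it was at -0.33 and passed the limit too. Summed over the 5 gamma genes the log2 ratio was -0.15 (-0.19 to -0.11), so the gamma sum was lower, as was the beta sum at -0.23 (-0.30 to -0.16), while the alpha sum was at 0.13 (0.07 to 0.18). These 3 sums kept their signs in 7 ways of scaling, with ranges of -0.21 to -0.07, -0.27 to -0.20 and 0.06 to 0.19. The gamma sum rests largely on aakg-1, with 5942 of its 11791 counts in control and 4796 of 10278 with EA. The other gamma genes differed: aakg-4 had -0.25 (-0.39 to -0.10) and aakg-2 -0.13 (-0.25 to -0.01). aakg-5 had -0.019 (-0.09 to 0.05), and aakg-3 was higher. Within the gamma genes, aakg-3 held 2.04% of the FPKM in control and 3.72% with EA. The LKB1 kinase gene par-4 itself had a log2 ratio of 0.11 (0.03 to 0.19).

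Of 12 AMPK targets, linked regulators and related kinases, 0 passed the smaller limit (25.5% of all genes did). The median log2 ratio was -0.0086 (0.05 by FPKM and -0.05 with the length trend removed). fnip-2, named for folliculin-interacting proteins, had -0.29 (-0.37 to -0.21), or -0.33 and past the limit with the length trend removed, and crh-1, the worm CREB transcription factor gene, had -0.27 (-0.35 to -0.18). The lipase gene atgl-1, whose product frees fatty acids from stored fat and is an AMPK substrate in worms, had 0.18 (0.10 to 0.26). The acetyl-CoA carboxylase gene pod-2, the enzyme family that AMPK classically inhibits, stood at 475 CPM in control and 447 CPM with EA, with a log2 ratio of -0.09 (-0.12 to -0.06).

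The 14 TOR complex partners and upstream regulators had a median of 0.020 (0.08 by FPKM and -0.0067 with the length trend removed). At the smaller limit 1 gene was higher and 1 lower (all genes 9.84% and 15.6%). The interval held 1 for 10 of the 14, and for 3367 of all 10610 genes. At the same limit by FPKM, 2 were higher, pept-1 and nprl-2, and 0 lower (all genes 14.8% and 12.5%). With the length trend removed 0 passed (all genes 9.07% higher and 13.9% lower). pept-1, the intestinal peptide transporter gene, had 54.02 and 69.5 CPM and a log2 ratio of 0.36 (0.28 to 0.44). lmtr-2, a gene of the Ragulator complex that anchors the Rag GTPases, had 36.8 and 28.7 CPM and -0.36 (-0.47 to -0.25); it has a short transcript of 508 nucleotides, and its value was -0.05 once a trend on transcript length was removed. nprl-2, of the GATOR1 complex that inhibits Rag signalling, had 0.27 (0.20 to 0.35). ragc-1, the partner of raga-1, had a log2 ratio of -0.013 (-0.06 to 0.03) and held 69.3% of the summed FPKM of the Rag pair in control and 67.8% with EA.

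Of 9 genes through which TOR acts on translation, 1 passed the smaller limit, which was higher (all genes 9.84% higher and 15.6% lower). The median log2 ratio was 0.09 (0.15 by FPKM). ife-5, a gene for the cap-binding factor eIF4E, had 587 and 843 counts and a log2 ratio of 0.57 (0.42 to 0.73). ife-3, another eIF4E gene, had 0.27 (0.22 to 0.32), or 0.33 and past the limit by FPKM, and ife-2 had -0.21 (-0.29 to -0.14). The 5 eIF4E genes are alike in sequence, and the handling of reads that match more than 1 gene is not stated, so their single values are uncertain; their sum had 0.13 (0.10 to 0.16). efk-1, the kinase that inhibits elongation factor 2, had -0.25 (-0.32 to -0.19), or -0.32 and just past the limit with the length trend removed. The S6 gene rps-6, whose protein S6 kinase phosphorylates, stood at 2141 CPM in control and 2275 CPM with EA, with a log2 ratio of 0.09 (0.07 to 0.10). Germline and oocyte markers were higher with EA, as given above, and their part in the eIF4E ratios was not tested.

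The list of outputs in other kinases, the start of autophagy and transcription held 9 names, of which epg-1 matched no row and is not analysed here. The other 8 had the lowest median log2 ratio of the 5 lists, -0.09 (-0.02 by FPKM and -0.16 with the length trend removed), with 2 ratios above 0 and 6 below. None of the 8 passed the smaller limit (25.5% of all genes did). With the length trend removed akt-2 and pkc-2 passed it, both lower, where 13.9% of all genes were lower. hlh-30, the worm TFEB transcription factor gene that drives autophagy and lysosome genes, had 8390 and 6902 counts, a log2 ratio of -0.23 (-0.28 to -0.18). akt-2 had -0.28 (-0.39 to -0.18), pkc-2 had -0.26 (-0.32 to -0.19), and the interval of sgk-1, a kinase downstream of TORC2, lay above 1 at 0.14 (0.05 to 0.23). The kinase gene unc-51 had -0.022 (-0.10 to 0.05).

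**Figure D4:**
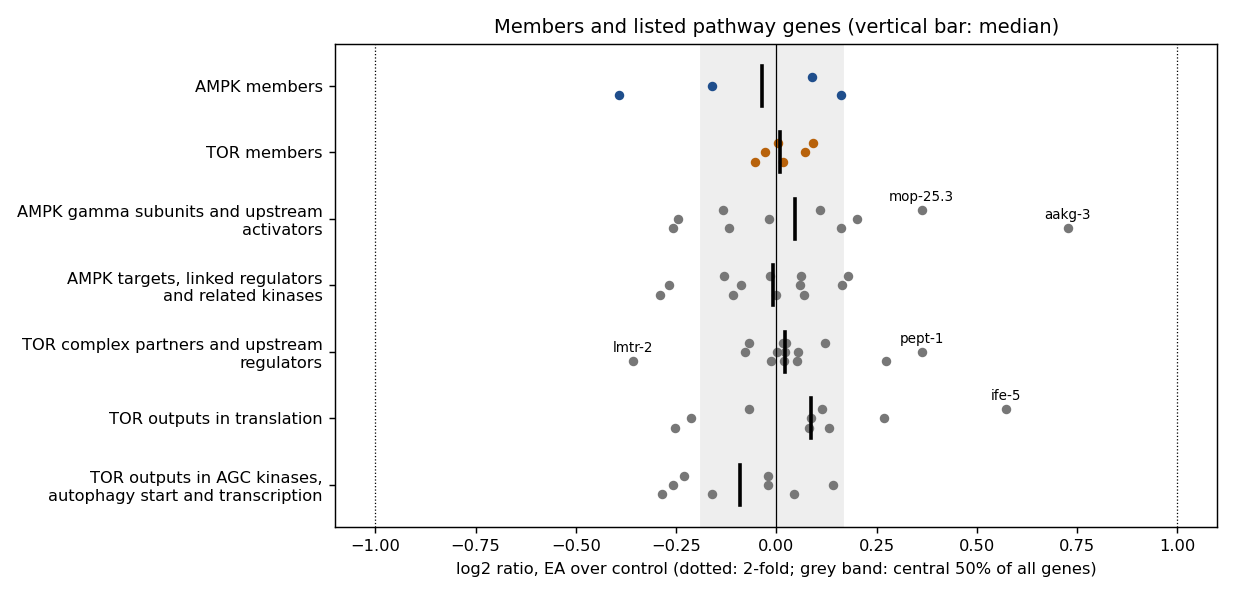
Log2 ratio of EA over control on the horizontal axis for the 4 AMPK genes, the 6 TOR genes and the 5 lists of further pathway genes; each point is 1 gene and each vertical bar the median of its row. No point reaches the dotted 2-fold lines; aakg-3 (0.73) and ife-5 (0.57) lie farthest to the right.

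The deposited annotation gives a wider view, since it places 102 gene rows in the KEGG mTOR signalling pathway, among them 8 of the 10 genes; the beta subunit genes aakb-1 and aakb-2 are not placed there. Without those 8, 84 genes had a mean of at least 5 CPM. None of these passed 2-fold (background 2.00%), 7 were higher and 6 lower at the smaller limit (backgrounds 9.84% and 15.6%), and their median log2 ratio was 0.027. By FPKM 14 were higher and 2 lower at that limit (all genes 14.8% and 12.5%), and the median was 0.09, beside 0.075 for all genes. With the length trend removed 7 were higher and 8 lower (all genes 9.07% and 13.9%), and the median was -0.0029, beside 0.0048 for all genes.

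**Figure D5:**
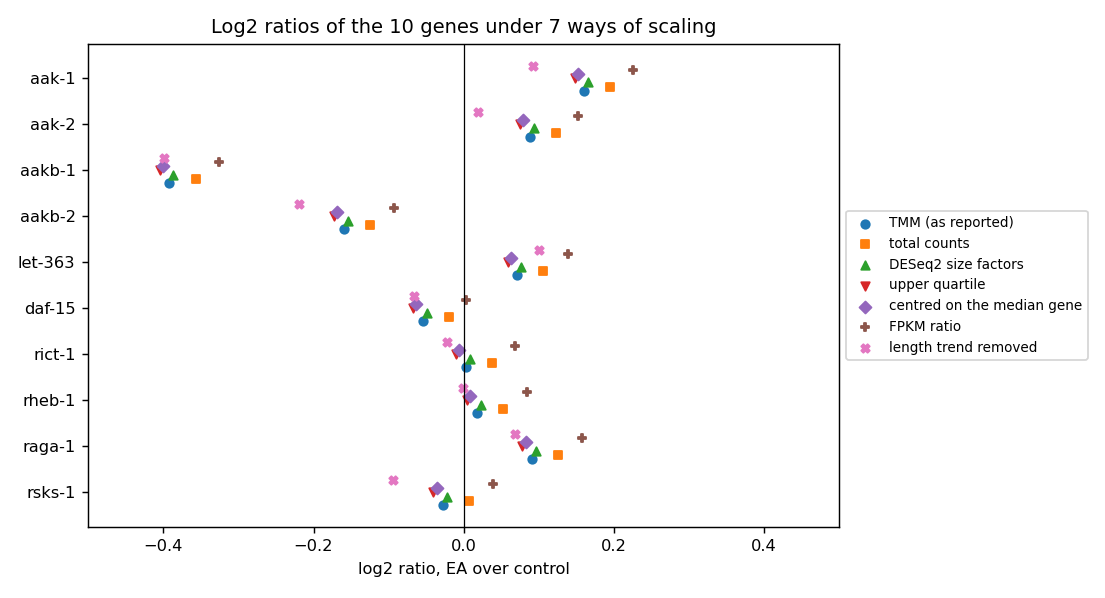
Log2 ratio of EA over control for each of the 10 genes under 7 ways of scaling the libraries, one marker shape per way. aak-1, aak-2, let-363 and raga-1 stay to the right of 0 and aakb-1 and aakb-2 to the left under each way shown, and the other genes lie around 0.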

How the data were processed

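The authors deposited counts per gene for both libraries and FPKM values beside them, per the file headers; per the labels' protocols the reference was WBcel235, libraries came from the NEBNext Ultra kit, and FPKM scales by transcript length and depth. The submitters' processing notes name edgeR; the aligner, the counter and any strand setting: not given in the sources used here. Beside these, the authors deposited a log2 fold change and false discovery rate (a q-value). Samples were assigned by title and columns by the sample descriptions.

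Here TMM factors (edgeR 4.0.16, R 4.3.3) gave CPM and log2 ratios with 0.5 added to each count. Intervals (95%) are exact conditional binomial (Clopper-Pearson); those for a ratio of 2 genes are conditional odds ratio intervals (scipy 1.17.1). The upper limit for a count of 0 (3 counts) was 0.0726 CPM in control and 0.0752 CPM in EA. No test was run, since each group has 1 library. Alternatives were total counts, DESeq2 1.42.0 size factors, upper-quartile scaling, median centring, deposited FPKM, removal of a lowess trend on transcript length (span 0.3, statsmodels 0.14.6, longest Ensembl 115 transcript, known for 19843 rows), other pseudocounts, other CPM minima and a smaller fold limit (0.32 on the log2 scale). The interval and count steps were tested on simulated data.

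The 10 genes and the 5 lists were chosen with earlier results of these data known. Named genes were all 10 genes, in each list the 3 genes farthest from a log2 ratio of 0 (mean of 5 CPM or above), and genes overlapping the 10. Named beside the rule, after values were seen, were par-4, pod-2, ragc-1, ife-2, rps-6, sgk-1, unc-51 and the nearest neighbours. The list name epg-1 matched no row and was left out. The sums over alpha, beta, gamma, Rag and eIF4E genes were formed after the values were seen. The alternatives for the list counts and medians, and the share of genes from 1 to 5 CPM, were also added after seeing the data. No measure of similar pattern was computed, since 2 libraries give none. No sequences were used here.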

Additional observations from a re-analysis of the deposited data

How the results depend on the processing

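No paired analysis was possible because each group has 1 library, and for the same reason no library could be left out. The count of 0 of the 10 genes past 2-fold was the same under all 8 alternatives in scaling, unit, transcript length and pseudocount, and became 1 with the smaller limit of 0.32 (log2). The median log2 ratio of the 10 ranged from -0.011 with the length trend removed to 0.08 with FPKM, and was also below 0 (-0.0027) with upper-quartile scaling. The median of all genes was 0.0048, 0.075 and -0.0041 in these settings, in that order. The count of 212 genes past 2-fold over all genes was 159 to 221 over the scalings, units and pseudocounts, 2703 at the smaller limit, 790 at a minimum mean of 1 CPM, 111 at 10 CPM and 2485 with no minimum; the minimum itself sets how many weakly counted genes enter.

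Of 80 values of single genes under an alternative, 74 stayed inside the counting interval of the reported value and 6 moved out of it. All 6 were by FPKM or with the length trend removed. The library scalings shift every gene alike, by less than the smallest interval half-width of 0.049. Other pseudocounts barely change counts this high. Those alternatives could therefore not move a value out, and the 74 is not a measure of stability. With FPKM, which added 0.06 to 0.07 to each of the 10 log2 ratios, let-363 was at 0.14, raga-1 at 0.16, rict-1 at 0.07, rsks-1 at 0.04 and daf-15 at 0.0031. The median of all genes was 0.075 by FPKM, beside 0.0085 in the reported scaling. With the length trend removed, rsks-1 was at -0.09. The log2 ratio of summed AMPK to summed TOR genes was -0.027 by counts and -0.08 by FPKM, and that of alpha to beta genes was 0.36 and 0.39. Counting error limits a single log2 ratio of the 10 to within 0.05 to 0.13, and the spread between cultures is unknown.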

Other observations

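Among the other genes that the deposited annotation places in the mTOR pathway, those of the vacuolar ATPase, the proton pump of the lysosome which in mammalian cells takes part in amino acid signalling to the Rag GTPases, had log2 ratios below 0 in 8 of 9 genes. This group was chosen after the values were seen and holds only the genes so annotated, vha-8 to vha-15 and vha-18. Other genes of the vacuolar ATPase were not analysed here. Of 9 such vha genes, 7 had a counting interval below 1 and 1, vha-18, an interval above 1, where 33.1% of all genes had an interval below 1 and 35.2% above. The median log2 ratio of the 9 was -0.13 by counts and -0.06 by FPKM, beside 0.0085 and 0.075 for all genes. By FPKM 5 of the 9 intervals lay below 1, as did 2711 of all 10610. The lowest were vha-9 (131 and 103 CPM, log2 ratio -0.34, -0.40 to -0.29), vha-10 at -0.32 and vha-8 at -0.32. Of the 9, vha-9 alone passed the smaller limit of 0.32 on the log2 scale (15.6% of all genes were lower at that limit), and none passed 2-fold. With upper-quartile scaling 3 passed the smaller limit (16.4% of all genes were lower), and by FPKM 0 did (12.5%).

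Wnt ligand genes, which the same annotation includes, went both ways and were likewise chosen after the values were seen. cwn-2 had 412 and 260 counts, a log2 ratio of -0.61 (-0.84 to -0.39), and cwn-1 had -0.33 (-0.44 to -0.22). mom-2 had 1141 and 1616 counts, a log2 ratio of 0.55 (0.44 to 0.66), egl-20 had 0.43 (0.30 to 0.57), and lin-44 was at -0.0055 (-0.21 to 0.20). At a mean between 1 and 5 CPM, 2 of 7 genes with the annotation were past 2-fold, both higher with EA. Of all 3611 genes at that level, 6.59% were higher and 9.42% lower. F21F3.2 had 32 and 94 counts (0.774 and 2.36 CPM), and Y106G6D.4 had 129 and 261 counts (3.12 and 6.54 CPM). The mean of F21F3.2 reached 1 CPM only through the EA library, where it was higher, so the minimum itself favoured its entry.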
